A study of Mus musculus with 4 samples.

Results

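The medial habenula is a small cell group at the medial edge of the thalamus, beside the third ventricle. Its neurons send axons through the fasciculus retroflexus to the interpeduncular nucleus, release glutamate together with acetylcholine or tachykinin peptides, and carry nicotinic acetylcholine receptors built from the alpha3 and beta4 subunits. It is known for its part in nicotine aversion and in responses to unpleasant stimuli. Here it was described as 59 array spots, chosen by the UMIs of 5 genes: Tac2, which encodes the neurokinin B precursor, Gpr151, an orphan receptor of habenular axons, Nwd2, and the nicotinic subunit genes Chrna3 and Chrnb4. In each section, spots with 500 or more UMIs (sequenced molecules counted once each) were ranked by the summed UMIs of the 5 genes per 10000 UMIs. The chosen spots were those in the top 0.8% that also held 3 or more UMIs of these genes. They made up 59 of the 9676 spots with 500 or more UMIs and of the 10940 spots over tissue.

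The spots came from Visium arrays, on which RNA from a tissue section is captured on a grid of barcoded spots 100 µm apart, so that a spot holds several cells or parts of cells. There was 1 coronal section of 10 µm through the dorsal hippocampus from each of 4 male mice, 2 trained and 2 untrained. All 4 mice carried ArcCreERT2::eYFPflx, were 3 to 4 months old and received 4-hydroxytamoxifen under isoflurane before the retention test. Cells of this line that are expressing Arc when the drug is given become marked with eYFP, because Cre is under Arc's control. Trained mice went through active place avoidance, in which entering a zone of the arena brings a shock, untrained mice had the same sessions without shock, and brains were taken 3 days after the retention test. A section stands for 1 mouse and is the replicate. The tissue was labelled hippocampus, and the habenula entered these sections only because it lies below the dorsal hippocampus in the same plane.

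Depth differed between sections and limits what follows. The totals ran from 3560294 to 10330015 UMIs, and the chosen spots numbered 17 in trained 1, 22 in trained 2, 7 in untrained 1 and 13 in untrained 2. Untrained 1 stood apart: its 7 chosen spots held 10256 UMIs, against 58871 to 72721 in the other sections, so that 1 UMI there equals 97.5 CPM (UMIs scaled to a total of 1e+06) against 13.8 to 17.0 CPM elsewhere. In that section 7 spots of the top share fell short of 3 UMIs of the 5 genes, as did 3 in trained 1, 6 in untrained 2 and none in trained 2. The median depth of a chosen spot was above that of the other spots in trained 1 (3577 against 2139 UMIs) and untrained 2 (3169 against 2031.5) and below it in trained 2 (2003.5 against 2727) and untrained 1 (1322 against 1353.5). Mitochondrial transcripts took 4.62% to 8.94% of the UMIs of chosen spots and 6.85% to 12.3% of those of other spots, and were lower in the chosen spots of every section.

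The 2 nicotinic subunit genes of the rule belong to a cluster on chromosome 9. In GENCODE's annotation of GRCm38, Chrna5 lies at chr9:54980880-55007779 on the plus strand, Chrna3 at chr9:55010111-55026562 and Chrnb4 at chr9:55028154-55048779 on the minus strand, so that the 3 genes span 67.9 kb with 2331 bases between Chrna5 and Chrna3 and 1591 bases between Chrna3 and Chrnb4. In the chosen spots Chrna3 had 78 UMIs and Chrnb4 38, counts that in part follow from their place in the rule, and Chrna5, which the rule did not use, had 2, both in untrained 2. In other spots all 3 were low, at 1.55 to 4.74 CPM for Chrna3, 1.08 to 2.02 for Chrnb4 and 0.621 to 1.77 for Chrna5. The 250 bases before a RefSeq start of each gene are shown to give the letters at the starts of these neighbours. They are from RefSeq's GRCm38.p6, written 5′ to 3′ on the gene's strand, with the GC box GGGCGG, searched on both strands, in capitals. For Chrna5 the second of 2 listed starts is shown; the window before the first, chr9:54980630-54980879, held no GC box. The windows are chr9:54981238-54981487 for Chrna5, chr9:55026563-55026812 for Chrna3 and chr9:55048545-55048794 for Chrnb4. The Chrna3 window ends at the start of the GENCODE gene above, as does the first Chrna5 window. The Chrna5 window shown lies inside GENCODE's Chrna5, and most of the Chrnb4 window lies inside its Chrnb4.
Chrna5: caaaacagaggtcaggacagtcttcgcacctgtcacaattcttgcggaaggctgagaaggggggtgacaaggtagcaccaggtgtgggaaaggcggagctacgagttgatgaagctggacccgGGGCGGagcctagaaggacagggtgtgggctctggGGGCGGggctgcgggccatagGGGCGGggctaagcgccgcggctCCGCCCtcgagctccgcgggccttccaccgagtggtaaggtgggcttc
Chrna3: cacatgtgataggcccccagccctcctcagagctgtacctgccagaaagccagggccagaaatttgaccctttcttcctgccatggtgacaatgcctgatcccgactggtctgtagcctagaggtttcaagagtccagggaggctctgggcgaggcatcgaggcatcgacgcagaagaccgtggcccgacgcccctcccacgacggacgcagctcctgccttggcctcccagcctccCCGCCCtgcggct
Chrnb4: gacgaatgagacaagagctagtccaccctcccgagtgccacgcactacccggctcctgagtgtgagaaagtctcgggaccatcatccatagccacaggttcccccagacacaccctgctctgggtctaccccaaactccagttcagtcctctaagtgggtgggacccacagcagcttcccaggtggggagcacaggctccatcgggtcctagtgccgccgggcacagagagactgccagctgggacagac
The Chrna5 window shown held 4 GC boxes, the Chrna3 window 1 and the Chrnb4 window none of these letters. Of all 32851 listed windows of this length, 32.7% held at least 1. That share covers genes whether or not they were detected here, and a share over the 2289 genes tested below is void, since only 1798 of them matched a window.

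The positions of the spots, which the rule did not use, separated the chosen spots into a patch and a set of far spots. When chosen spots up to 2 spacings apart were joined, the largest group held 17 of 17 spots in trained 1, 16 of 22 in trained 2, 4 of 7 in untrained 1 and 10 of 13 in untrained 2, 47 of 59 in all. This group is called the main patch. It lay 35.0 to 444 µm from the right tissue edge on the array, at a smallest distance of 100 to 458 µm from spots ranked highest for thalamus genes, and above them on the array. Counting only spots that touch, 36 of 59 chosen spots, or 61.0%, were in the largest patch of their section. By section these were 10 of 17 in trained 1, 12 of 22 in trained 2, 4 of 7 in untrained 1 and 10 of 13 in untrained 2. Neighbouring spots are not independent, so no interval is given for this share. In trained 1 the patch fell into 2 touching groups, of 10 and 7 spots, with a gap of 200 µm at the narrowest. The 7 spots in that gap held 25 UMIs of the 5 genes among 27494, and Ttr, the transthyretin gene made by the choroid plexus, reached 209828 CPM in them.

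**Figure D1:**
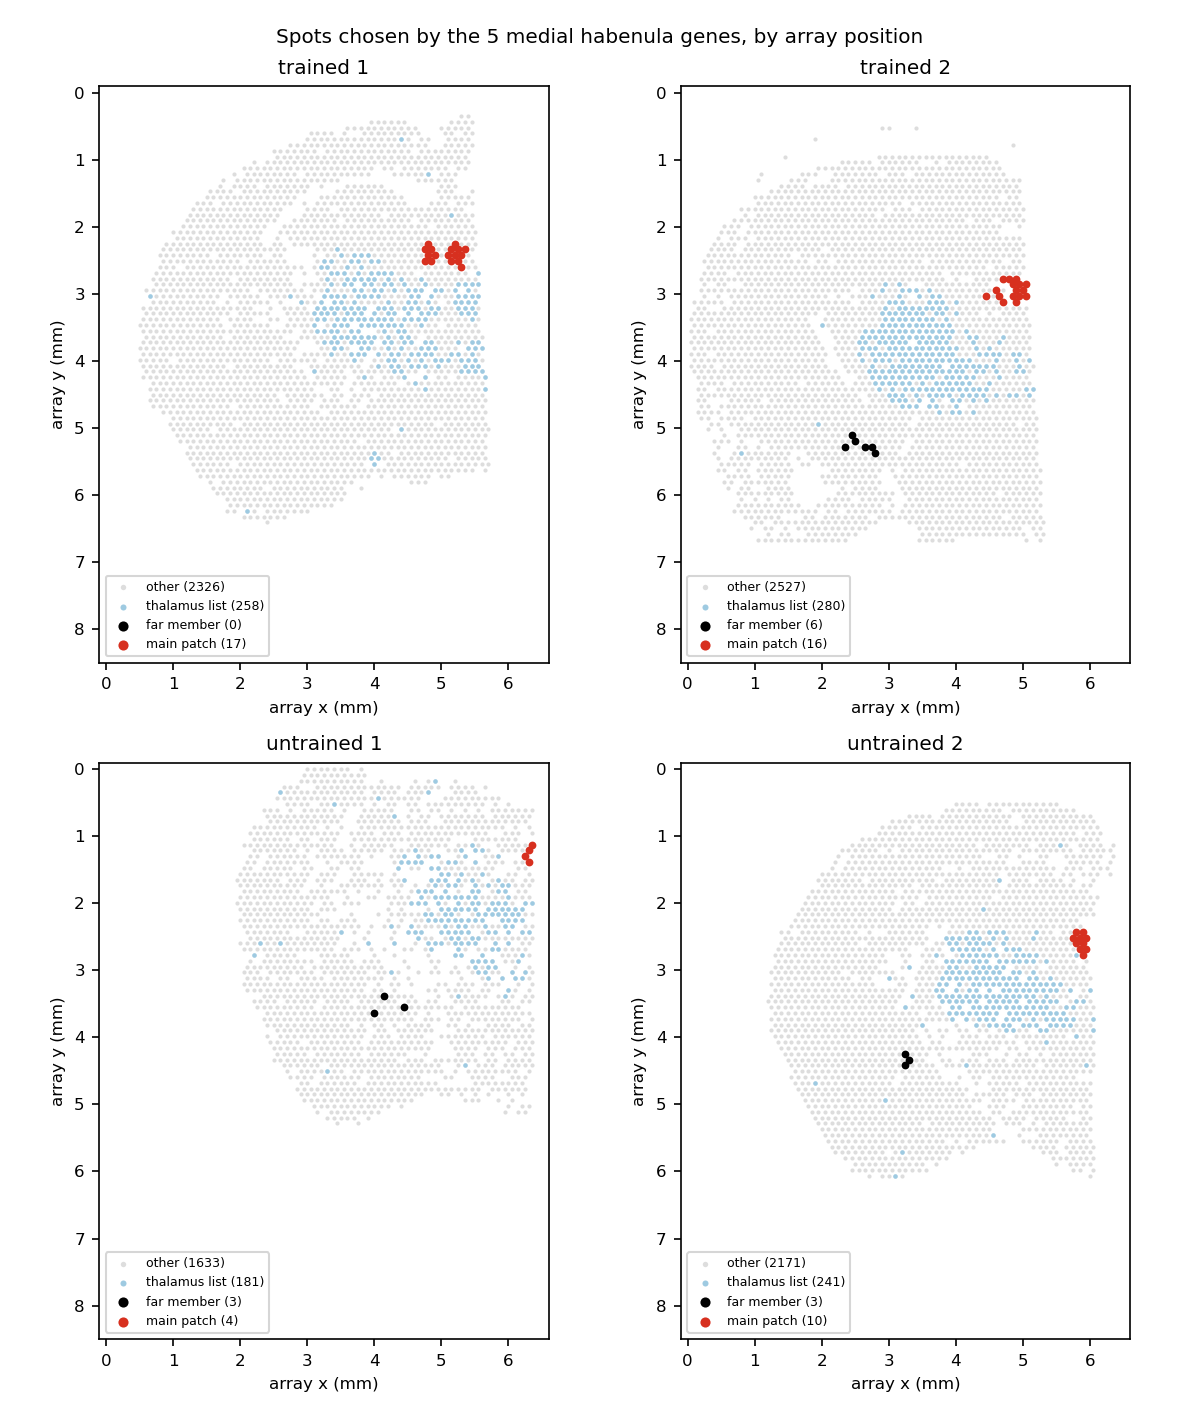
Array position (x and y, in mm) of every spot with 500 or more UMIs in the 4 sections, with the main patch in red, far chosen spots in black and spots ranked highest for thalamus genes in blue; numbers in brackets are spots. The patch of 17, 16, 4 and 10 spots sits near the right tissue edge above the thalamus spots, and the 6, 3 and 3 far spots of trained 2, untrained 1 and untrained 2 sit in the lower part of the tissue.

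The marker genes were found together in the patch but not in the far spots. In the patch, the 594 UMIs of the rule were 269 of Tac2, 136 of Nwd2, 78 of Chrna3, 73 of Gpr151 and 38 of Chrnb4, and 37 of its 47 spots held 3 or more of the 5 genes. The 12 far spots lay 2.82 to 3.22 mm from the patch, and 248 of their 251 rule UMIs were Tac2. None of them held a UMI of Chrna3 or Chrnb4, 1 held Gpr151 and 2 held Nwd2, and none had 3 of the 5 genes. Of trained 2's 6 far spots, all in 1 group, the UMIs included 205 of Pmch (melanin-concentrating hormone), 110 of Avp (vasopressin) and 25 of Gad1, a GABA synthesis enzyme. The 3 far spots of untrained 2 held 24 UMIs of Sst (somatostatin) and 12 of Nts (neurotensin). Tac2 is also made by neurons outside the habenula, and the far spots are called here by their leading gene, as Tac2 spots. They were kept in the chosen set, as the rule demands, and values without them are given as values of the patch.

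The 5 genes of the rule were, by its construction, high in the chosen spots, and their levels are given as a description with no test. Tac2 was at 1499 CPM in trained 1, 3793 in trained 2, 2633 in untrained 1 and 2191 in untrained 2, against 33.5 to 47.3 CPM in the other spots. In the patch alone the Tac2 values were 1499, 1942, 2645 and 2124 CPM, so that the high value of trained 2 came with its far spots. Chrna3 in the patch was at 495, 816, 882 and 368 CPM in the same order of sections, against 1.55 to 4.74 CPM in other spots. Chrnb4 in the patch was at 303, 194 and 238 CPM in trained 1, trained 2 and untrained 2, and had 0 UMIs in untrained 1, where 3 counts would be 661 CPM. Nwd2 was at 845 to 1322 CPM and Gpr151 at 388 to 536 CPM in the 4 patches. As UMIs of these genes chose the spots, no contrast of trained and untrained sections is drawn from them.

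A gene of the rule can be looked at in spots that the other 4 genes chose. In such spots Tac2 was 29.3-fold higher than in the remaining spots in trained 1, 16.4-fold in trained 2, 66.4-fold in untrained 1 and 39.7-fold in untrained 2. For Nwd2 the folds were 11.5 to 30.8, for Gpr151 19.4 to 72.1 and for Chrna3 80.1 to 220.0. Chrnb4 was 51.9- to 162-fold higher in 3 sections and had no UMI in the chosen spots of untrained 1. The spot scores, in rule UMIs per 10000, of the last spot inside the top share with enough UMIs and of the first spot below it were 19.6 and 19.4 in trained 1, 27.0 and 26.5 in trained 2, 20.4 and 16.6 in untrained 1, and 18.6 and 16.3 in untrained 2.

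**Figure D2:**
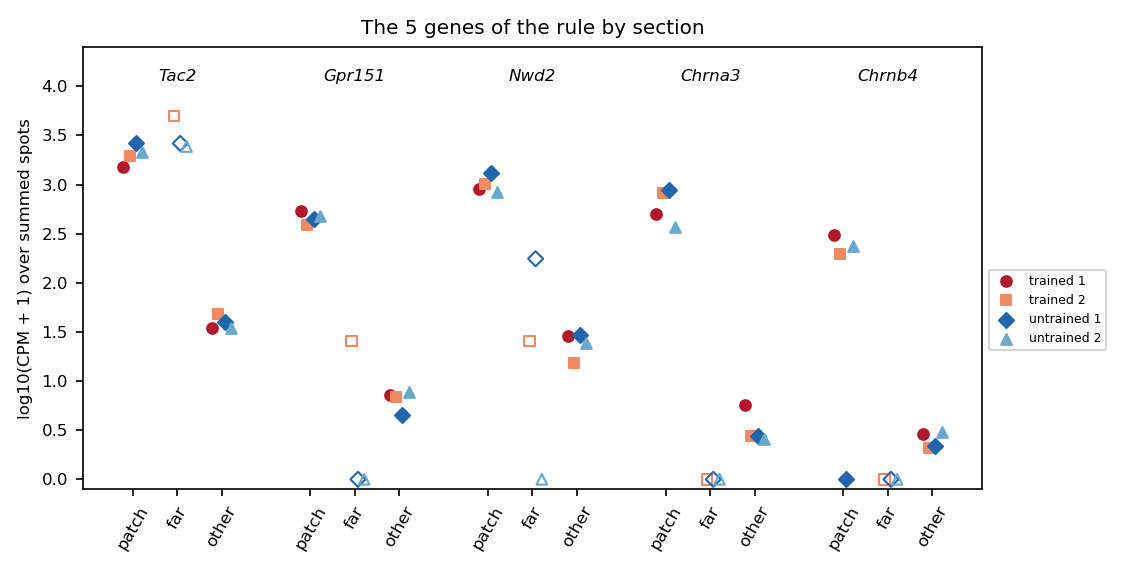
Levels of the 5 genes that chose the spots, as log10(CPM + 1) over summed spots (vertical axis), in the main patch, the far spots (open symbols) and all other spots of each section. Tac2 is at 2435 to 4964 CPM in the far spots of 3 sections, where Chrna3 and Chrnb4 are at 0; in the patches Chrnb4 is at 0 in untrained 1.

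Genes outside the rule were compared between chosen and other spots in each section. Because the same cells' counts chose the spots, this is a description and no test was made. A gene was counted as higher where log2 of (CPM + 20) in chosen over other spots was at least 1, that is 2-fold, in each of the 4 sections. Of 2289 genes with 20 or more UMIs over the chosen spots, 39 were higher, which is 1.70%, and 1 was lower, which is 0.0437%. Of the 3126 UMIs of these 39 genes in the chosen spots, 95.6% came from the patch, which held 149144 of all 208286 UMIs of the chosen spots (71.6%), and 13 of the 39 had no UMI in the far spots. In untrained 1 a single UMI could make a gene pass, and 12 of the 39 rested on 1 UMI there. Genes nearly absent elsewhere could reach 20 UMIs only by being high in the chosen spots. In bulk sums such as these, more cells of a type and more RNA per cell cannot be told apart.

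The gene with the largest smallest fold was Gm5741, a predicted protein-coding gene at chr8:85067568-85067982 on the minus strand of GRCm38, which overlaps neither of its neighbours Fbxw9 and Dhps. Gm5741 was at 1375 CPM in the chosen spots of trained 1, 542 in trained 2, 195 in untrained 1 and 1478 in untrained 2, against 3.04 to 10.0 CPM in other spots. All of its 225 UMIs in chosen spots were in the patch, and the sections did not overlap with their surroundings. Necab2, which encodes an EF-hand calcium-binding protein, was at 1691, 933, 1853 and 1682 CPM against 101 to 143 CPM. Its relative Necab3 was at 376 to 825 CPM against 61.2 to 73.2 CPM, with all 137 UMIs in the patch. Gng8, a G protein gamma subunit, was at 1568, 256, 97.5 and 612 CPM against 7.76 to 11.2 CPM. Its trained 1 value stood far above the rest, and its untrained 1 value is 1 UMI.

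**Figure D3:**
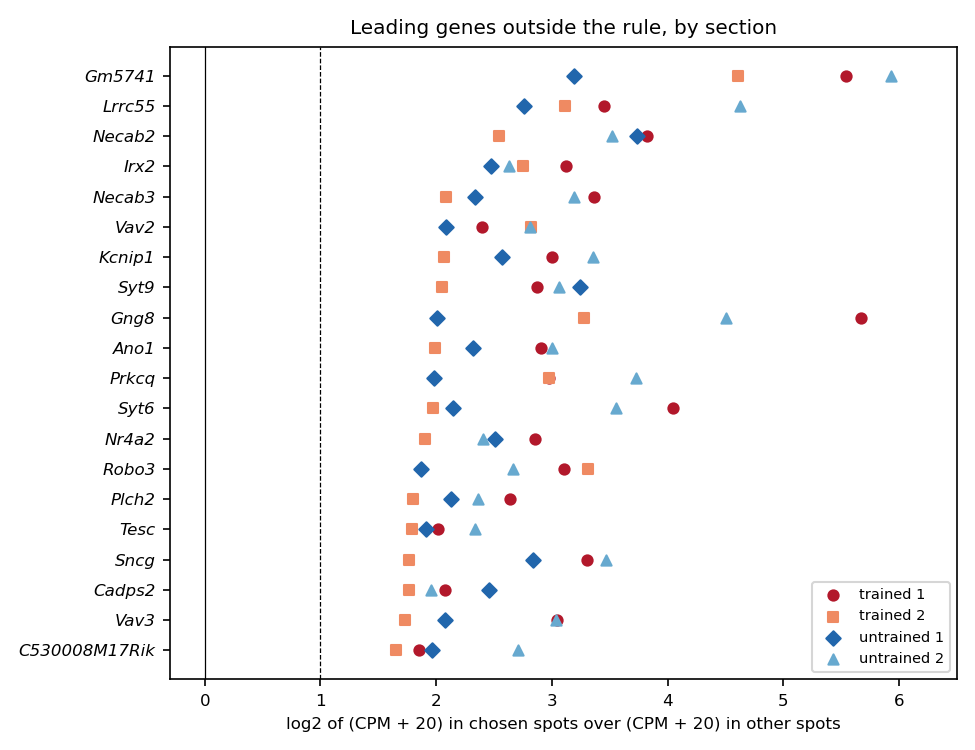
Log2 of (CPM + 20) in chosen spots over (CPM + 20) in other spots (horizontal axis) for the 20 genes outside the rule with the largest smallest-of-4 value, 1 symbol a section; the dashed line is 2-fold. All symbols lie right of the dashed line, from 1.65 (C530008M17Rik in trained 2) to 5.93 (Gm5741 in untrained 2).

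The other genes among the first 20 are given by what each is known to do; this order was made after the genes were seen and no group of them was tested. Transcription factor genes were Irx2 (smallest log2 2.47, largest 3.12) and Nr4a2 (1.90 to 2.85), and Zic1 was also among the 39 at 196 to 853 CPM against 54.9 to 76.8 CPM. Genes of ion channels and their partners were Lrrc55, an auxiliary subunit of the BK potassium channel (2.76 to 4.62), Kcnip1, which binds voltage-gated potassium channels (2.07 to 3.35), and Ano1, a calcium-activated chloride channel (smallest 1.99). Of a list of 12 HCN and voltage-gated calcium channel genes, 1 reached 20 UMIs and 0 were higher in all sections, where 1.70% of all genes tested were. With 1 gene counted this tells nothing of the list. Genes of vesicle release were Syt9 (largest 3.24), Syt6 (1.98 to 4.04) and Cadps2 (1.76 to 2.46). Signalling genes were Vav2 and Vav3, guanine nucleotide exchange factors, Prkcq, a protein kinase C, and Plch2, a phospholipase C, with smallest values of 2.09, 1.73, 1.98 and 1.80. Against the spots ranked highest for thalamus genes, the smallest value of Vav3 was 0.35, below 2-fold. Robo3, an axon guidance receptor, had a smallest value of 1.87. Tesc, Sncg and C530008M17Rik completed the 20.

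A wider count used the patch alone in the 3 sections with the most UMIs, a choice made after the values were seen. Of 1557 genes with 20 or more UMIs in the patch, 88 outside the rule (5.65%) were at least 2-fold higher in all 3 patches and 19 (1.22%) at least 2-fold lower. Among the 88 were Pou4f1, the Brn3a factor that specifies habenular neurons, with 28 UMIs, all in the patch (179, 155 and 238 CPM against 1.18 to 2.73 CPM), and Chrnb3, another nicotinic subunit gene, with 21 of its 22 UMIs there. Zic4 and Lhx9, both transcription factor genes, were at 117 to 260 CPM in these 3 patches against 3.84 to 12.6 CPM. All 4 genes had 0 UMIs in the patch of untrained 1. As they are low elsewhere, they could reach 20 UMIs in the patch only by being high there, so the filter in effect set their calls. The 19 lower genes included 8 mitochondrial transcripts, the neuronal RNA Bc1, and Nrgn, Camk2n1 and Ppp3ca, genes of calmodulin signalling. Bc1 was at 3974, 2680, 8155 and 6047 CPM in the 4 patches against 22690, 16205, 47214 and 33878 CPM in other spots, and differed between sections as well. Nrgn, lower than in all other spots, was above the spots ranked highest for thalamus genes in every section (688, 272, 661 and 802 CPM in the patches against 248, 174, 537 and 275 CPM). In the 4-section count the gene lower throughout was Ddn, which encodes dendrin, at 75.3 to 170 CPM against 259 to 435 CPM. In the patch alone Ddn was not 2-fold lower in every section, with a log2 of -0.67 in trained 2.

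Gene lists chosen for this tissue gave the following picture. Of 15 further habenula genes, all had a UMI in the chosen spots, 8 reached 20 UMIs, and 5 of these were higher in all sections, where 1.70% of all genes tested were: Gng8, Lrrc55, Necab2, Nr4a2 and Irx2. The other 7 had 1 to 17 UMIs. Several of the 8, such as Gng8 and Irx2, could reach 20 UMIs only by being high in these spots. Of the list's 895 UMIs, 873 lay in the patch. The nicotinic list of 16 subunit genes had 6 with a UMI, Chrna3, Chrna4, Chrna5, Chrnb2, Chrnb3 and Chrnb4, and 156 of its 161 UMIs were in the patch, most of them of the rule's Chrna3 and Chrnb4. Outside the rule and Chrnb3, its members were at few UMIs: 11 for Chrna4, with 9 in the patch, and 10 for Chrnb2, with 8. Of the cholinergic list, Slc5a7, the choline transporter, had 32 UMIs, all in the patch, at 193, 155, 0 and 303 CPM against 2.64 to 10.2 CPM. Slc18a3, the vesicular acetylcholine transporter, had 17 of its 19 UMIs in the patch. Slc18a3 fell 1 UMI short of the filter and so was not counted, at 110, 60.2, 97.5 and 102 CPM in the chosen spots against 2.02 to 4.31 CPM. Of the 8 cholinergic genes 2 reached 20 UMIs, and neither was higher in all 4 sections, where 1.70% of all genes tested were. Slc5a7, with 0 UMIs in untrained 1, could not be called, and 2 genes tell little of the list. Ache, which breaks down acetylcholine and had 26 UMIs, was at 96.3, 181, 195 and 84.9 CPM in the chosen spots against 80.9 to 118 CPM, with 11 UMIs in far spots. Slc10a4 had 0 UMIs in chosen spots and Bche 0 in the patch. Chat, the synthesis enzyme of acetylcholine, had 0 UMIs in the chosen spots of every section, where 3 counts would be 41.3 to 293 CPM, and was at 0 to 0.287 CPM in the other spots, so that these data say little of its level.

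Glutamate transport genes were less distinct. Slc17a6, the vesicular glutamate transporter of thalamus and habenula, had 40 of its 44 UMIs in the patch, at 234, 233, 0 and 368 CPM against 101 to 148 CPM. Slc17a7, the cortical and hippocampal one, was at 350 to 693 CPM in the patches against 394 to 645 CPM, so that patch and surroundings overlapped. Slc1a2, the glial glutamate uptake transporter, was at 0 to 385 CPM in the patches against 944 to 1077 CPM. Of the GABA-B receptor list, Kctd8, an auxiliary subunit, was higher in all sections, and all of its 27 UMIs lay in the patch. Its relatives had few UMIs: Kctd12 had 8, at 55.0, 15.1, 97.5 and 34.0 CPM in the chosen spots against 60.6 to 81.6 CPM, Kctd12b had 5, at 27.5, 0, 97.5 and 34.0 CPM against 0.981 to 2.36 CPM, and Kctd16 had 0, which at this depth shows no difference from other spots. Gabbr1 was at 1088 to 2425 CPM in the 4 patches against 449.9 to 499 CPM, and Gabbr2 at 426 to 855 CPM against 184 to 214 CPM. Htr5b, a serotonin receptor gene, had 12 UMIs, all in the patch, at 68.8, 117, 0 and 86.7 CPM against 0.196 to 0.776 CPM. Htr2c, the member of the serotonin receptor list with most UMIs, had 17 of its 22 in far spots. Tacr1, the substance P receptor, had 8 of 9 UMIs in the patch.

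Genes of other cell types gave a check on what else the spots held. The 5 thalamus genes summed to 0 to 233 CPM in the patches, against 376 to 705 CPM in other spots, and the 9 lateral habenula genes to 468 to 661 CPM against 1466 to 1758 CPM. Myelin genes in the patches were at 4607, 4234, 3086 and 4465 CPM in trained 1, trained 2, untrained 1 and untrained 2. Other spots had 3828, 6697, 4088 and 4313 CPM, so the patch was above them in trained 1 and untrained 2. Choroid plexus genes differed most between sections: their sum in the patch was 14081 CPM in trained 1, 466 in trained 2, 1763 in untrained 1 and 1864 in untrained 2, against 5967, 805, 2797 and 5811 CPM in other spots. Ttr gave 914 of the choroid plexus UMIs in trained 1. Ependyma genes in the patches were at 82.5, 155, 0 and 217 CPM in the same order, against 57.1, 42.0, 31.3 and 40.8 CPM. They were thus above other spots in every section but untrained 1, where 3 counts would be 661 CPM. GABA neuron genes were at 130.0 to 427 CPM against 835 to 1118 CPM. Dentate granule genes were at 0 to 82.5 CPM against 62.6 to 84.7 CPM, and above other spots only in trained 1 (82.5 against 72.2 CPM). The part of these other cell types in the values above was not tested.

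Within the patch, the peptide and transporter genes were not spread alike. The patch of each section was divided at its median array row into an upper part, away from the thalamus, and a lower part. Tac1, the substance P precursor, had 33 UMIs in the upper parts and 1 in the lower parts. Its level was 325 and 57.5 CPM in the upper and lower part of trained 1, and 163, 775 and 488 CPM against 0 in trained 2, untrained 1 and untrained 2, where the first 2 of these values are 2 UMIs each. Adcyap1, the PACAP precursor, had all 19 UMIs in the upper parts. Slc5a7 and Slc18a3 together had 24 UMIs in the upper and 25 in the lower parts, and their level was higher in the lower part in the 3 sections that held them, at 253 and 460 CPM in trained 1, 244 and 297 CPM in trained 2 (3 and 4 UMIs), and 310.3 and 551 CPM in untrained 2, with none in untrained 1. Tac2 was higher in the upper part in 2 sections and in the lower part in the other two, and Nwd2 likewise. Of the 47 spots, 13 held Tac1, 24 held Slc5a7 or Slc18a3, and 5 held both. This division was made after the spots were chosen and is a description: with 4 sections and a handful of UMIs in each part it was not tested.

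**Figure D4:**
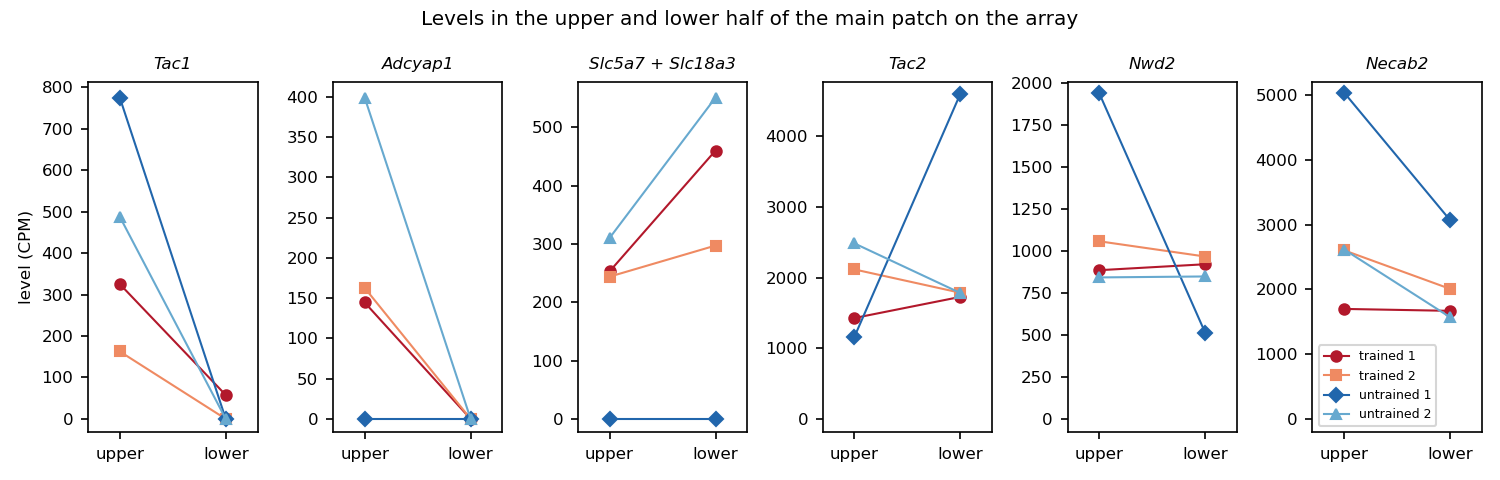
Level in CPM (vertical axis, its own scale in each panel) in the upper and lower part of the main patch, 1 line a section. Tac1 falls from upper to lower in 4 of 4 sections and Adcyap1 in the 3 that hold it, Slc5a7 plus Slc18a3 rises in the 3 that hold them, Tac2 and Nwd2 go up in 2 sections and down in 2, and Necab2 is higher in the upper part in 4.

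The signal of the 5 genes faded within a few spots of the patch. In spots 1 spacing away from the patch the 5 genes summed to 878 to 1030 CPM, against 3727 to 5290 CPM within it; the spots outside were by construction those with the lower scores. At 2 spacings the sum was 179 CPM in trained 1, 599 in trained 2, 659 in untrained 1 and 274 in untrained 2, and beyond 6 spacings it was 59.2 to 69.1 CPM. The 15 further habenula genes, which the rule did not use, went from 5399 to 6037 CPM in the patch to 2132 to 3445 CPM at 1 spacing, 955 to 3203 CPM at 2, and 429 to 517 CPM beyond 6. In trained 1 choroid plexus genes summed to 78975 CPM at 1 spacing, against 14081 CPM in the patch and 3394 CPM beyond 6 spacings.

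**Figure D5:**
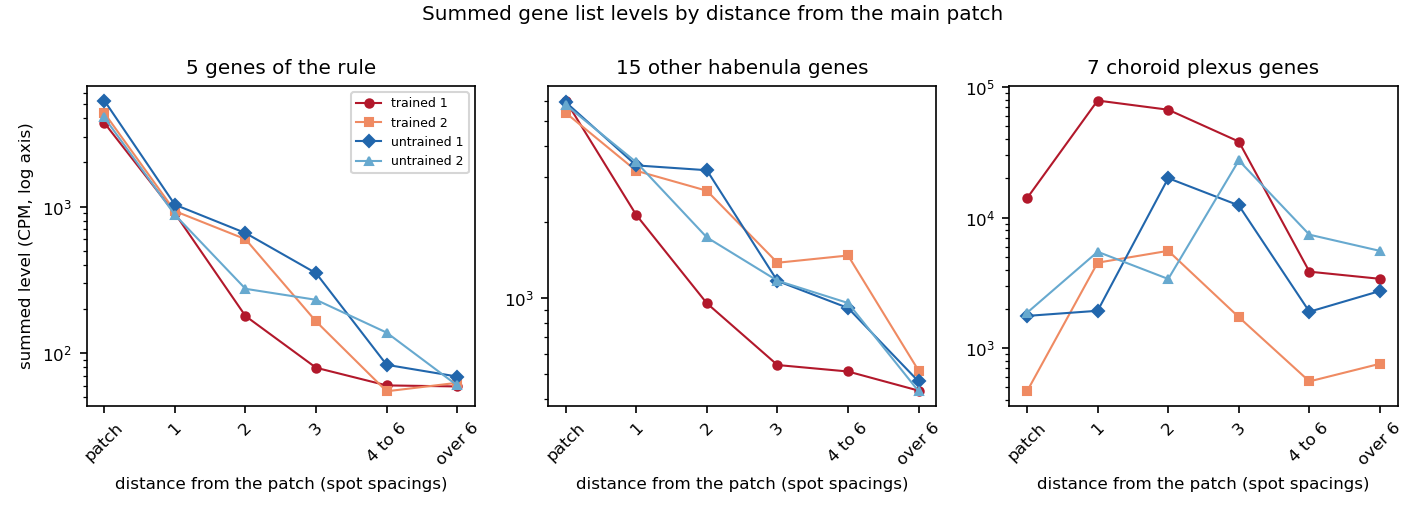
Summed level (CPM, log axis) of 3 gene lists in the main patch and in spots at growing distance from it (in spacings of 100 µm), 1 line a section; far chosen spots are left out. Both habenula lists fall with distance in every section, apart from 2 small rises in trained 2 (the 15 genes from 1380 to 1475 CPM at 4 to 6 spacings, the 5 genes from 54.9 to 62.7 CPM beyond 6), and the choroid plexus list peaks at 1 to 3 spacings.

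Whether chosen spots differed between trained and untrained mice was tested on UMIs summed over the chosen spots of each section, 2 against 2, with edgeR's quasi-likelihood test. Of 1360 genes tested, 0 passed an adjusted p of 0.05 (0%). At an unadjusted p under 0.05 there were 21 genes in edgeR. DESeq2, run on a wider set of 12631 genes, called 0 with 4 at that unadjusted level. The smallest p belonged to Gm42418, which shares reads with ribosomal RNA, at 220, 135, 780.0 and 527 CPM in trained 1, trained 2, untrained 1 and untrained 2 (log2 trained over untrained -1.70 ± 0.44 SE, adjusted p = 0.999 by edgeR). Bc1 followed, at 3974, 6532, 26814 and 9342 CPM (-1.70 ± 0.48, adjusted p = 0.999 by edgeR). Of untrained 1's 275 Bc1 UMIs, 238 were in far spots, and the Bc1 log2 was -0.94 in the patch alone and -0.82 without untrained 1. For both, the trained values lay below the untrained ones without overlap, and the same held in the other spots. The next 3 were Bsg, Synpr and Mapk9, at 1.26 ± 0.43, -1.21 ± 0.44 and 2.63 ± 0.98 with the same adjusted p. Mapk9 had 0 and 2 UMIs in the untrained sections, and without untrained 2 its value was 6.25 and that of Synpr -0.64. With spots of 1000 or more UMIs the value of Bsg was 0.67. The median SE over the genes tested was 0.51 on the log2 scale, and a p above the threshold does not show that the mice were alike.

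Immediate early genes, which neurons switch on after activity, were sparse. Of 12 listed, 11 had a UMI in the chosen spots, 75 UMIs in all, and none passed the filter on low counts. Egr1 had 4, 7, 1 and 4 UMIs, Arc 4, 5, 1 and 5, Nr4a1 0, 8, 1 and 3, and Dusp1 3, 4, 0 and 3 in trained 1, trained 2, untrained 1 and untrained 2. The list summed to 220 and 452 CPM in the trained and 585 and 391 CPM in the untrained chosen spots, and the groups overlapped. In the patch alone the sums were 220 and 311 CPM against 661 and 325 CPM, on 42 UMIs over the 4 patches. The 661 CPM of untrained 1 is 3 UMIs. In trained 2's patch 3 counts would be 117 CPM, so 311 and 325 CPM lie less than 1 UMI apart. These sums show no separation of the groups and were not tested. Arc itself, whose promoter drives the Cre of this line, was at 55.0, 75.3, 97.5 and 84.9 CPM in chosen spots and at 141, 135, 51.1 and 137 CPM in other spots. Of the 15 further habenula genes, 7 passed the filter and 0 were called.

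The last comparison asked whether the training difference in chosen spots was another one than in all other spots of the same sections. In edgeR's interaction test with the section as a block, 0 of 11881 genes passed (0%), with 191 at an unadjusted p under 0.05. DESeq2, run on 20034 genes, called 0 with 48 at that level. The smallest p were those of Pmch and Ttr (log2 2.38 ± 0.63 and 2.14 ± 0.61, adjusted p = 1 by edgeR). Pmch had 212 UMIs in the chosen spots of trained 2 and 2 to 13 in the others, and 205 of the 212 came from the far spots; in the patch alone its log2 was -0.0012. Ttr had 914 UMIs in trained 1 and 11 to 81 elsewhere. Each value thus rests on 1 section. Gria3 and Nts were also among the 5 smallest, with at most 12 UMIs in any section, and Gria3 was at 0 in both untrained sections. The median over all genes was 0.22 with TMM scaling and -0.0075 without it, an offset that differences in this fit should be read against.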

How the data were processed

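Each of the 4 samples was a 10x Genomics Visium library. The authors deposited UMI counts per gene and spot for spots over tissue, with array positions. Their methods name Space Ranger and the mm10 reference, whereas the file headers name spaceranger 1.2.2 and the submitters' processing notes Cell Ranger 8 with STAR and build mm39. Gene coordinates are from GENCODE's GRCm38 annotation, not from the files. Spots under 500 UMIs were left out. The members, gene lists and comparisons were chosen with earlier results of these data known. The counts were summed per section over chosen, patch, far and other spots and scaled to CPM. Thalamus spots were the 10% of other spots highest for 5 thalamus genes. Training was tested with edgeR 4.0.16 (R 4.3.3; filterByExpr, TMM, quasi-likelihood test, Benjamini-Hochberg at 0.05) on 4 sums, and its difference from other spots on 8 sums with section as a block. DESeq2 1.42.0 and other settings were alternatives. The scripts were tested on simulated data. Named genes were the 5 of the rule, list members counted, the 20 largest smallest-of-4 differences, and for training the 5 smallest p. Of the 10 lowest only some are named. Genes named beyond these were chosen after their values were seen. Of the 5 smallest p in the comparison with other spots, 1 gene is not reported here. Per the methods, the 4 sections are from 4 mice. Precision is limited by UMI counts: 10256 to 72721 per section in chosen spots.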

Additional observations from a re-analysis of the deposited data

Results flagged for a closer look

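The summed level of 5 astrocyte genes (Aqp4, Gja1, Slc1a3, Aldh1l1 and Gfap) in chosen spots minus other spots was above 0 in both trained sections (51.3 and 66.0 CPM) and below 0 in both untrained sections (-31.1 and -211 CPM). The mean log2 of chosen over other spots was 0.50 higher in trained than in untrained sections, and this difference was not tested. The list had 113 UMIs in all chosen spots, 5 of them in untrained 1. In the patch alone the sum of untrained 1 was above that of its other spots (661 against 519 CPM), so the 2 groups no longer went opposite ways.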

How the results depend on the processing

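For training in chosen spots, 0 genes passed with edgeR; 3 passed without a filter on low counts (Avp, Pmch and Ttr), 1 in the methods' rank-sum test on single spots (Bc1), which treats spots of a mouse as independent, and 2 to 5 when a section was left out: Avp, Penk, Pmch, Cartpt and Ttr without trained 1, Enpp2 and Ttr without trained 2, Avp, Bc1, Pmch and Ttr without untrained 1, and Bc1, mt-Co1 and mt-Atp6 without untrained 2. Ttr turned direction among these calls, with a log2 of -2.96 without trained 1 against 3.29 without trained 2, 2.23 without untrained 1 and 2.52 without the filter. A lone section was then assumed to vary like the other group. For the difference from other spots, 2 genes passed with the top 1.2% of spots (Enpp2, Ttr), 2 against thalamus spots, 2 with the replicate block in place of the section block and 2 with library size only (Pmch and Ttr in each), and 0 to 1 (Ttr) when a section was left out; library size only, patch-only and crossed settings were chosen after seeing the data. Same-numbered sections deviated in opposite ways (r = -0.23 over 1360 genes). With 2 sections a group this is a single value, and it cannot show whether the mice were handled in pairs. The replicate block gave 0 calls for training, as did the crossed block. Without the far spots Pmch was at -0.0012, and Nts had no UMI left in any patch, so that its fitted 0.15 carries no direction. The 39 genes higher in chosen spots became 25 with a pseudocount of 50 CPM, 60 in the largest touching patch, 62 in the main patch, 65 against thalamus spots, 6 of 199 genes with spots thinned to 500 UMIs, and 34 to 59 when a section was left out (59 without trained 2). The patch share became 79.7% with a reach of 2 spacings. Smallest log2 values turned negative with 1000 or more UMIs for Lrrc55 (-0.69), Prkcq (-0.58) and Robo3 (-0.70), without Tac2 in the rule for Irx2 (-0.10), Gng8 (-0.56) and Syt6 (-0.42), and with thinned spots for Irx2 (-0.22), Vav2 (-0.55), Kcnip1 (-1.41), Syt6 (-0.29), Robo3 (-0.68), Sncg (-1.22) and Vav3 (-1.03). Against thalamus spots the largest log2 turned positive for Ddn (0.37), Bc1 (0.72) and, by the most of these, Nrgn. The cause was not tested for these. The count of genes lower throughout (1) ranged from 0 to 13. Under the other alternatives the counts of training calls and of genes higher, and the patch share, stayed within 1.5 times, but the genes differed: of the 39, 25 were among the 37 with 1000 or more UMIs a spot, 31 among the 41 without Nwd2 in the rule and 32 among the 45 with the top 1.2%. Depth limits untrained 1 most.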
